A study of Mus musculus with 6 samples.

Results

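The creatine kinase and phosphate energy shuttle was described here by 9 genes, chosen by name from the gene table: Ckm, Ckb, Ckmt2, Slc6a8, Gatm, Gamt, Ak1, Slc25a4 and Slc25a5. All 9 were found among the 34745 genes listed, and all 9 passed the filter on low counts that left 15198 genes for testing. The libraries were made from total RNA of the left ventricle of male wild-type (WT) C57BL/6 mice, whose age is given as 8 weeks. By their labels, 3 libraries come from transverse aortic constriction (TAC), a ligature around the aortic arch that raises the pressure the ventricle works against. By theirs, the other 3 come from Sham surgery, done without the ligature, and the tissue of both groups was collected at week 6. Whether each library came from its own mouse is not stated in the labels, so every p-value below measures the spread between these libraries, which may be technical.

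Creatine kinases pass the high-energy phosphate of ATP to creatine and back. In heart muscle the mitochondrial enzyme, encoded by Ckmt2, charges creatine beside the adenine nucleotide translocators that export ATP from the matrix, and cytosolic dimers of the muscle and brain subunits, encoded by Ckm and Ckb, return the phosphate to ADP near the myofibrils and ion pumps. Adenylate kinase 1 makes ATP from ADP and so extends the same network. The heart takes up most of its creatine from blood through the transporter encoded by Slc6a8, while the synthesis enzymes encoded by Gatm and Gamt are known mainly from kidney, pancreas and liver. A smaller phosphocreatine store and lower creatine kinase activity are known features of failing hearts.

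Gene counts summed to 17399510 to 28401399 per library. Levels of single genes are given as CPM, counts scaled to a common library size by the trimmed mean of M-values (TMM), and levels compared between genes as FPKM, which also divides by length. The labels did not match the markers of pressure overload. Nppa, the atrial natriuretic peptide gene, had 92.2, 64.3 and 95.1 CPM in the TAC-labelled libraries 1, 2 and 3, against 772, 1894 and 595 CPM in those labelled Sham 1, 2 and 3 (adjusted p = 0.0222, edgeR quasi-likelihood test). Acta1, the skeletal actin of the fetal heart programme, also stood lower in the libraries labelled TAC (log2 difference -3.23, SE 0.56, adjusted p = 0.0448), while Nppb (-1.59, adjusted p = 0.191; -0.998 without Sham 2) and Myh7 (-0.69, adjusted p = 0.814) did not pass. Myh7, the slow myosin heavy chain, had 212, 65.7 and 6050 CPM in TAC 1, 2 and 3, against 1816, 6323 and 2072 CPM in Sham 1, 2 and 3, and its log2 difference was -4.61 without TAC 3 (adjusted p = 0.0843) and 0.12 without Sham 2. The Nppa call was lost without any of the 3 libraries labelled TAC (adjusted p up to 0.0816) and with a replicate block (0.0734), its log2 difference staying between -3.99 and -3.02. That of Acta1 was lost with the block and in every leave-one-out fit except the one without TAC 3 (adjusted p up to 0.121). Whether the labels or the table's columns are exchanged between the groups cannot be told from the files. If they are, every direction given here would be the other way round, so the groups are called by their labels throughout. On the first principal component, which held 47.2% of the variance, the groups lay on opposite sides. Sham 2 was furthest out on it, at 44.0, against 11.4 and 25.3 for Sham 1 and Sham 3. The library labelled TAC 3 stood apart on the second principal component, which held 21.5% of the variance, so results that rest on TAC 3 are also given without it.

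None of the 9 genes passed an adjusted p of 0.05 in edgeR, where 1.43% of all genes tested did so. The members' adjusted p-values ran from 0.122 to 0.873. At an unadjusted p under 0.05 there were 2 of 9, Ckm and Slc25a4, against 20.9% of all genes tested, and DESeq2 called the same pair at an adjusted p of 0.05, where it called 7.79% of all genes and 3.15% as higher in the libraries labelled TAC. The TAC and Sham libraries did not overlap in CPM for 3 of the 9, Ckm, Slc25a4 and Gatm (33.3%, beside 27.0% of all genes tested). The estimate was above 0, higher in the libraries labelled TAC, for 4 genes and below 0 for 5, and 50.9% of all genes tested had an estimate above 0. The median log2 difference was -0.09 over the 9 genes and 0.01 over all genes tested.

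The sequence upstream is shown for Ckm, Ckmt2, Ckb, Slc25a4 and Slc25a5, because these are the genes whose levels are compared as ratios below. The lines give the 250 bases before the annotated start, 5′ to 3′ on the gene's own strand, from RefSeq on GRCm38.p6. Capitals mark the E-box (letters CAGCTG), the CCAAT motif and the TATA motif (letters TATAAA). Each was searched on both strands, and positions count back from base -1, next to the start. RefSeq and the deposited table place some starts differently: most of the Slc25a4 window lies inside the gene span of the deposited table, and the Slc25a5 window ends short of that gene's span.
Ckm (chr7:19410844-19411093, plus strand): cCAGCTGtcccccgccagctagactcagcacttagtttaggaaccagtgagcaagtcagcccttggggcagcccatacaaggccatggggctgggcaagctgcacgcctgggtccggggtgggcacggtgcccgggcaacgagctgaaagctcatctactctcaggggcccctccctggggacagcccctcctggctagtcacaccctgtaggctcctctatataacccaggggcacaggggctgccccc
Ckmt2 (chr13:91876886-91877135, minus strand): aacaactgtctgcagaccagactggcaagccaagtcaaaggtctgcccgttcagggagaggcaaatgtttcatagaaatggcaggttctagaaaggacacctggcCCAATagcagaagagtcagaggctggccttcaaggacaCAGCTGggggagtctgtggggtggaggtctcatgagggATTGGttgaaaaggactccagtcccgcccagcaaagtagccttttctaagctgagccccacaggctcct
Ckb (chr12:111672339-111672588, minus strand): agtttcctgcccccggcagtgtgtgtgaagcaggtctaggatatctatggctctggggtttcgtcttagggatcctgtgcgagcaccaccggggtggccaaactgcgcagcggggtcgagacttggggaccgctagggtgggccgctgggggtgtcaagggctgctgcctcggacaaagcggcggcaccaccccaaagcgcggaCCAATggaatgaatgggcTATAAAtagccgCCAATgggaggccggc
Slc25a4 (chr8:46211063-46211312, minus strand): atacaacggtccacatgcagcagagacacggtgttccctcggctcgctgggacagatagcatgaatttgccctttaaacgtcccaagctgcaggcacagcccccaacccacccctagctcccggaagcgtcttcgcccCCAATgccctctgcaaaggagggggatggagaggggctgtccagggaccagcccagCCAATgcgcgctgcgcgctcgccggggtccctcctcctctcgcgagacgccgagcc
Slc25a5 (chrX:36795347-36795596, plus strand): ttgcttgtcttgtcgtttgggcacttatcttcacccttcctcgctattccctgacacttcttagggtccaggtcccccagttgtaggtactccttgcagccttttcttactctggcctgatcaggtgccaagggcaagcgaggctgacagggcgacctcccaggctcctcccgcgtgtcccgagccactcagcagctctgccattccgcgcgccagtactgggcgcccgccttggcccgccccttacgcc

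The E-box CAGCTG, a sequence bound by the MyoD family in skeletal muscle, was found upstream of Ckm from base -249 and of Ckmt2 from base -107, and in 13.0% of 32851 promoter windows of the same length. CAGCTG also stood in separate windows of Ak1, from base -177 and from base -227, and other Ak1 windows held none. No CAGCTG was found in the windows of Ckb, Slc25a4 or Slc25a5. Ckb carried TATAAA from base -28, which 12.4% of windows hold, inside a match to the MEF2 site, which 2.92% hold. The Ckm window holds the letters tatataa near the start, which differ from TATAAA and were not searched for. CCAAT boxes stood at 2 positions each in the windows of Ckb, Ckmt2 and Slc25a4, and 33.8% of all windows held at least 1. CG dinucleotides numbered 6 upstream of Ckm and 2 upstream of Ckmt2, against 16 for Ckb, 18 for Slc25a4 and 14 for Slc25a5, the median window having 6. RefSeq windows were matched for 8 of the 9 genes, and Slc6a8 had none. No window of these genes held the ERR motif TNAAGGTCA, found in 1.14% of all windows. These matches describe the letters only.

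By FPKM, the sarcomeric mitochondrial enzyme gene was the most abundant of the 9 (mean over 6 libraries). Ckmt2 (chromosome 13, 91853387 to 91876885) averaged 1063 FPKM and was the gene of rank 28 in the table. Slc25a4 (chromosome 8, 46206797 to 46211284) followed at 620 FPKM and Ckm (chromosome 7, 19411094 to 19421583) at 549 FPKM, at ranks 40 and 46. Their ranges overlapped each other but not that of Ckmt2, whose lowest library, at 829 FPKM, was above the highest for Slc25a4, at 718 FPKM. The place of Ckmt2 above Slc25a4 depends on the lengths that these FPKM values imply, 1486 and 2713 bases. In CPM, without length, Slc25a4 was above Ckmt2 in TAC 3 (1960.5 against 1240.4), Sham 2 (1415 against 1309) and Sham 3 (1388 against 1312). It was below Ckmt2 in TAC 1, TAC 2 and Sham 1. Slc25a5 (chromosome X, 36795651 to 36798807) at 58.3 FPKM and Ak1 (chromosome 2, 32621758 to 32635058) at 52.8 FPKM formed a middle tier with overlapping ranges. Slc6a8 (chromosome X, 73673150 to 73682502) and Ckb (chromosome 12, 111669355 to 111672338) were alike in FPKM, at 10.3 and 10.2. The lengths that these values imply are 9867 and 1478 bases, and in CPM Slc6a8 was higher. Its mean was 80.2 CPM against 13.0 for Ckb in the libraries labelled TAC, and 124 against 17.2 in those labelled Sham. The creatine synthesis genes Gatm (chromosome 2, 122594467 to 122611303) and Gamt (chromosome 10, 80258151 to 80261012) lay at 0.721 and 0.492 FPKM, again with overlapping ranges. Coordinates are those of the deposited table on GRCm38, and each span covers exons, introns and UTRs of the gene. Together the 9 genes took 0.503% ± 0.0444 of gene counts in the libraries labelled TAC, against 0.428% ± 0.0503 in those labelled Sham (SD, n = 3 each). The groups overlapped, with TAC 3 at 0.453% below Sham 1 at 0.486%.

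**Figure D1:**
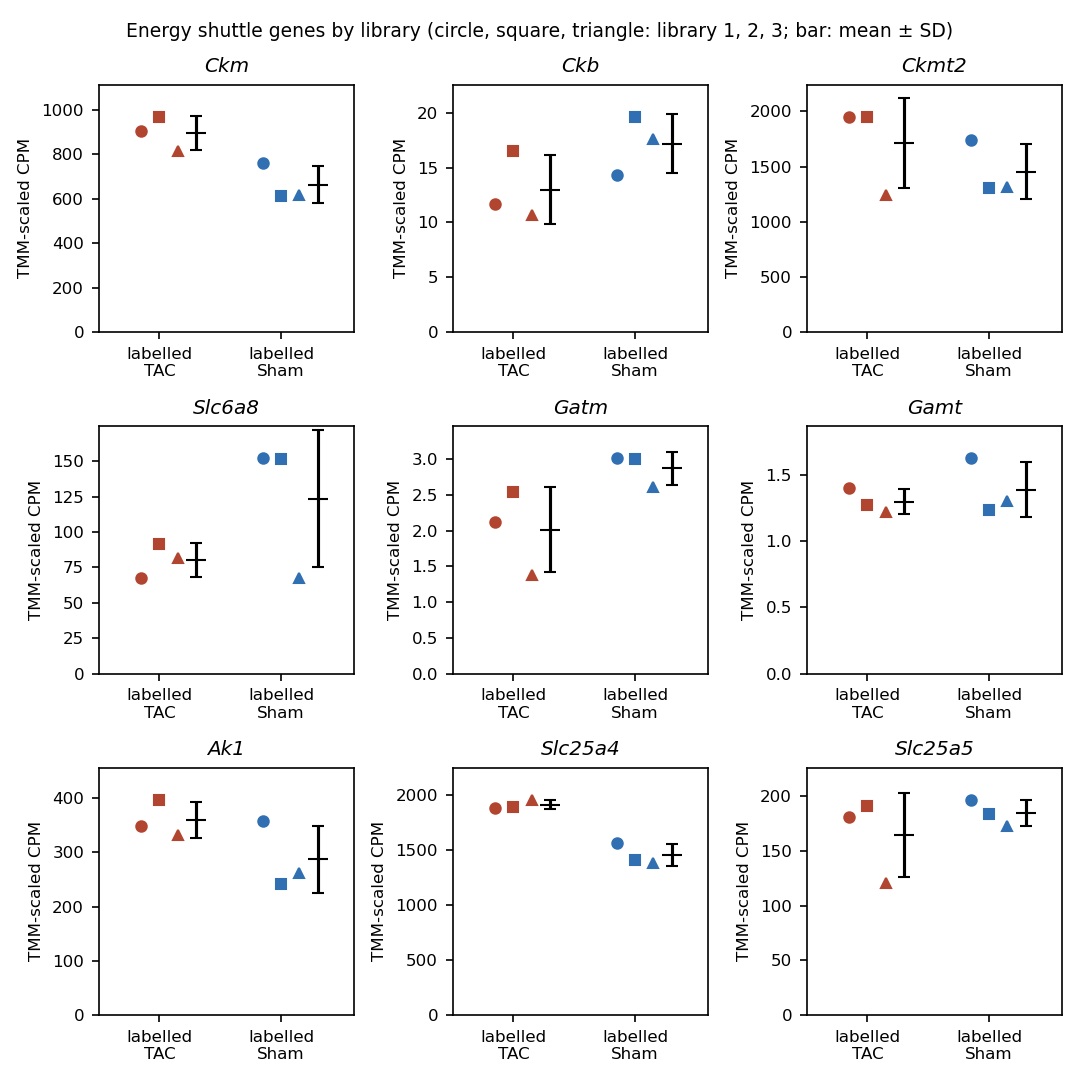
TMM-scaled CPM (vertical axes, each from 0) of the 9 genes in each library, labelled TAC left and labelled Sham right, with the mean and SD of the 3 libraries as a bar. Ckm, Slc25a4 and Gatm are the panels in which the groups do not overlap, and the triangle of TAC 3 lies lowest for Ckb, Ckmt2, Gatm, Gamt and Slc25a5.

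Ckm, the muscle subunit of cytosolic creatine kinase, had 905, 968 and 816 CPM in the TAC-labelled libraries 1, 2 and 3, against 759, 612 and 618 CPM in those labelled Sham 1, 2 and 3. Every library labelled TAC lay above every library labelled Sham, with Sham 1 the nearest. The fitted log2 difference was 0.43 (SE 0.13, 95% interval 0.12 to 0.75), or 1.35-fold with TAC over Sham, and did not pass (edgeR adjusted p = 0.134). DESeq2 put it past the threshold at adjusted p = 0.0469.

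Ckb, the brain subunit, which also forms the mixed dimer with the muscle subunit in heart, had 11.7, 16.5 and 10.7 CPM in TAC 1, 2 and 3, against 14.3, 19.6 and 17.6 CPM in Sham 1, 2 and 3. The groups overlapped, since TAC 2 lay above Sham 1. The log2 difference was -0.41 (SE 0.20, 95% interval -0.88 to 0.06; edgeR adjusted p = 0.299), and it was -0.62 without TAC 2 and -0.28 without TAC 3.

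Ckmt2 had 1952, 1947 and 1240.4 CPM in the libraries labelled TAC, against 1743, 1309 and 1312 CPM in those labelled Sham. TAC 3 was the lowest of all 6 libraries, while TAC 1 and TAC 2 were the highest, so the groups overlapped across their whole range. The log2 difference was 0.24 (SE 0.21, 95% interval -0.25 to 0.72, edgeR adjusted p = 0.565), with 0.42 and adjusted p = 0.223 without TAC 3, 0.38 without Sham 1, and 0.13 and 0.14 without TAC 1 and TAC 2. Ckmt1, the ubiquitous mitochondrial isoform, was nearly absent, with 2, 4 and 3 counts in the libraries labelled TAC, against 9, 13 and 10 in those labelled Sham. It did not pass the filter on low counts and was not tested.

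The balance of the creatine kinase isoforms was compared as a ratio of FPKM within each library, which does not depend on library scaling. The log2 ratio of Ckb to Ckm was -6.34, -5.93 and -6.32 in TAC 1, 2 and 3, against -5.79, -5.03 and -5.20 in Sham 1, 2 and 3. The groups did not overlap, and the ratio was lower in the libraries labelled TAC by a log2 difference of -0.86, which is 1.81-fold higher in those labelled Sham. An exact two-sided permutation test gave p = 0.1, the smallest that 3 libraries against 3 allow, and 0.15 after Benjamini-Hochberg adjustment over the 3 ratios compared. As a share, Ckb made up 1.36% ± 0.219 of the summed Ckm and Ckb FPKM in the libraries labelled TAC, against 2.47% ± 0.621 in those labelled Sham (SD, n = 3 each).

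The log2 ratio of Ckmt2 to Ckm averaged 0.84 ± 0.27 in the libraries labelled TAC, against 1.06 ± 0.06 in those labelled Sham (SD, n = 3 each; exact permutation p = 0.3, adjusted 0.3). TAC 3 stood at 0.53 and the other 5 libraries between 0.94 and 1.13, and without TAC 3 the difference of -0.22 was -0.07. Ckmt2 held 58.8% to 68.2% of the summed FPKM of Ckm, Ckb and Ckmt2 in every library.

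**Figure D2:**
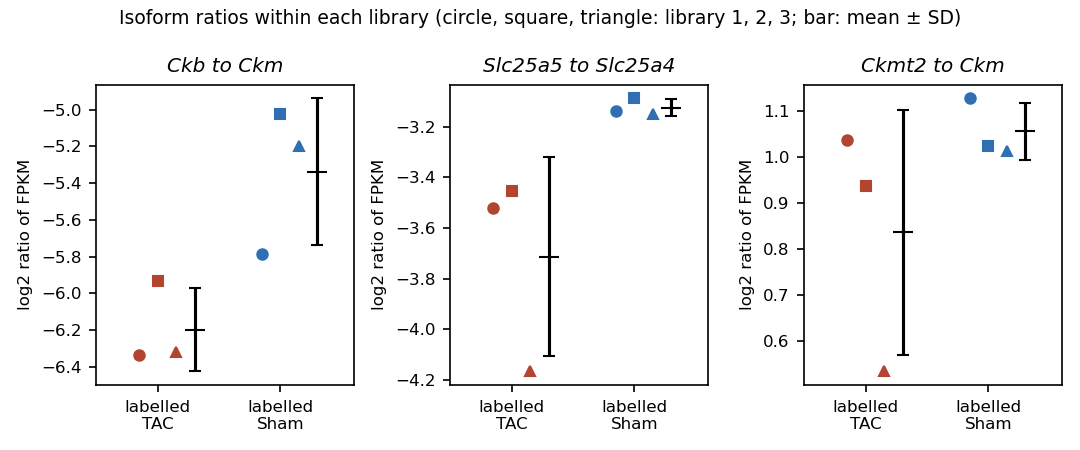
Log2 ratio of FPKM within each library (vertical axes; they do not start at 0), labelled TAC left and labelled Sham right, with the mean and SD as a bar, for Ckb to Ckm, Slc25a5 to Slc25a4 and Ckmt2 to Ckm. The groups do not overlap for Ckb to Ckm or Slc25a5 to Slc25a4, and TAC 3 lies lowest for Slc25a5 to Slc25a4 and Ckmt2 to Ckm.

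Slc25a4 encodes the heart and muscle adenine nucleotide translocator, which exchanges matrix ATP for cytosolic ADP. It had 1886, 1898 and 1960.5 CPM in the libraries labelled TAC, against 1571, 1415 and 1388 CPM in those labelled Sham. The 3 libraries labelled TAC lay close together and above all of those labelled Sham. The log2 difference was 0.39 (SE 0.11, 95% interval 0.13 to 0.66), or 1.31-fold with TAC over Sham, with edgeR adjusted p = 0.122 and DESeq2 adjusted p = 0.0126. It stayed between 0.36 and 0.45 with any library left out, none of these fits passing the threshold.

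Slc25a5, the translocator of most other tissues, had 181, 191 and 120.5 CPM in TAC 1, 2 and 3, against 197, 184 and 173 CPM in Sham 1, 2 and 3. Apart from TAC 3, the lowest, the libraries of both groups lay in 1 range. The log2 difference of -0.17 (SE 0.18, 95% interval -0.58 to 0.24, edgeR adjusted p = 0.635) turned to 0.01 without TAC 3. The labels do not say how reads shared by these similar coding sequences were counted. The pseudogene rows Slc25a5-ps and Ckb-ps1 had 0 counts in every library.

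The log2 ratio of Slc25a5 to Slc25a4 was -3.52, -3.45 and -4.17 in TAC 1, 2 and 3, against -3.14, -3.09 and -3.15 in Sham 1, 2 and 3. All 3 libraries labelled TAC lay below the narrow range of those labelled Sham. The difference was -0.59 (exact permutation p = 0.1, the smallest possible; adjusted 0.15), and -0.36 without TAC 3. Slc25a5 made up 7.22% ± 1.69 of the summed translocator FPKM in the libraries labelled TAC, against 10.3% ± 0.212 in those labelled Sham (SD, n = 3 each).

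Ak1, the cytosolic adenylate kinase, had 348, 397 and 332 CPM in the libraries labelled TAC, against 358, 242 and 261 CPM in those labelled Sham. Sham 1 lay within the range of the libraries labelled TAC and the other two of its group below it. The log2 difference was 0.32 (SE 0.17, 95% interval -0.06 to 0.71, edgeR adjusted p = 0.314), with 0.51 without Sham 1 (adjusted p = 0.0826) and 0.22 without Sham 2 (adjusted p = 0.629).

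Slc6a8, the creatine transporter, had 67.6, 91.2 and 81.8 CPM in TAC 1, 2 and 3, against 152, 151 and 67.4 CPM in Sham 1, 2 and 3. Sham 3 was the lowest of the 6 libraries, and Sham 1 and Sham 2 were the highest. This gave the largest estimate of the 9 genes, -0.62 (SE 0.29, 95% interval -1.31 to 0.06, edgeR adjusted p = 0.274), which was -0.92 without Sham 3 (adjusted p = 0.0831) and -0.45 without Sham 2 (adjusted p = 0.582).

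Gatm, which makes guanidinoacetate, the precursor of creatine, had 44, 50 and 27 counts in the libraries labelled TAC, against 63, 85 and 48 in those labelled Sham. Scaled, these were 1.37 to 2.55 CPM in the libraries labelled TAC, against 2.61 to 3.01 CPM in those labelled Sham, a narrow gap at low counts (log2 difference -0.51, SE 0.27, edgeR adjusted p = 0.327; -0.71 without TAC 2 and -0.30 without TAC 3). Gamt, which methylates guanidinoacetate to creatine, had 29, 25 and 24 counts in the libraries labelled TAC, against 34, 35 and 24 in those labelled Sham. Its log2 difference of -0.09 (SE 0.26, 95% interval -0.70 to 0.52, edgeR adjusted p = 0.873) had the opposite sign, 0.03, without Sham 1.

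**Figure D3:**
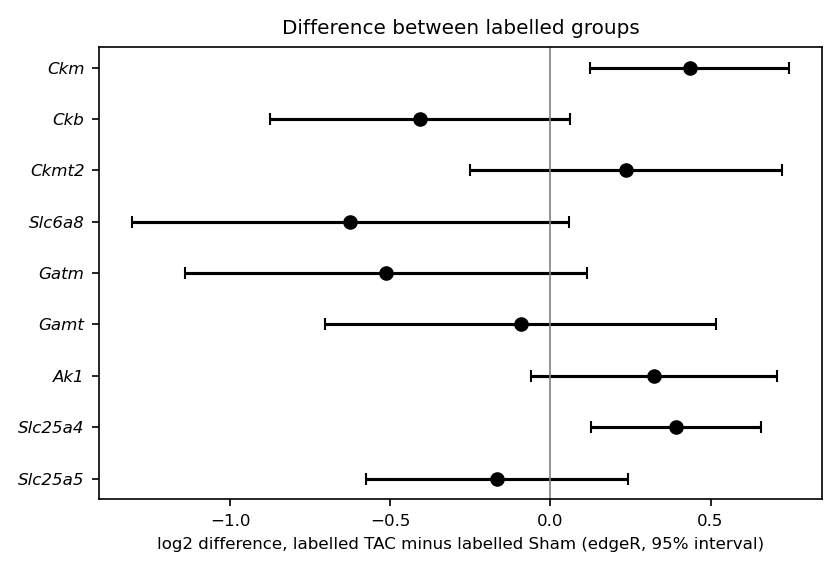
Fitted log2 difference, labelled TAC minus labelled Sham (horizontal axis), with its 95% interval from edgeR for each of the 9 genes. The intervals of Ckm (0.12 to 0.75) and Slc25a4 (0.13 to 0.66) lie above 0 before adjustment over all genes, and the other 7 include 0.

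**Figure D4:**
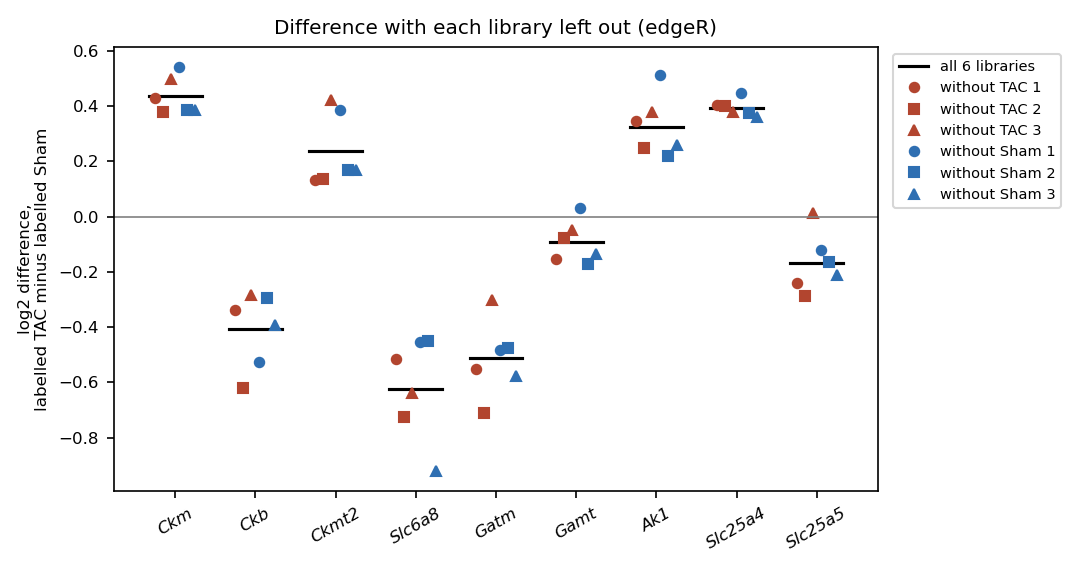
Fitted log2 difference, labelled TAC minus labelled Sham (vertical axis), of each of the 9 genes with all 6 libraries (line) and with each library left out (points). Slc25a5 without TAC 3 (0.01) and Gamt without Sham 1 (0.03) are the points on the other side of 0 from their line.

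The direction of Ckm and Slc25a4 was shared by markers of cardiac muscle cells. The 8 cardiomyocyte markers summed to 50926 to 66727 CPM in the libraries labelled TAC, against 36501 to 49481 CPM in those labelled Sham, with a median log2 difference of 0.45, and 7 of 8 estimates were above 0. Actn2 was the exception (-0.09). None passed in edgeR, with 6 at an unadjusted p under 0.05 (20.9% of all genes tested) and 3 called by DESeq2 (7.79%). Myh6 was the largest part of the sum, at 25561 to 32774 against 13733 to 23896 CPM. Actc1, the next largest, overlapped between the groups (4252 to 12033 against 6297 to 7682 CPM). The 8 fibroblast markers summed to 1279 to 1713 CPM in the libraries labelled TAC, against 2212 to 3524 CPM in those labelled Sham. Their median log2 difference was -0.60, and Postn passed. The 7 macrophage markers summed to 90.0 to 166 CPM in the libraries labelled TAC, against 205 to 218 CPM in those labelled Sham. Their median was -0.70, or -0.48 without TAC 3, and none of them passed in edgeR. The sums of the endothelial markers (1001 to 1053 against 878 to 1049 CPM) and of the smooth muscle and pericyte markers (1649 to 2026 against 1331 to 1742 CPM) overlapped between the groups, as did those of the nerve and glia markers (15.3 to 15.5 against 13.1 to 19.6 CPM, with Th at 0). Of the 7 smooth muscle and pericyte markers none passed in edgeR. DESeq2 called 4 of them (7.79% of all genes), 2 higher and 2 lower in the libraries labelled TAC. Neutrophil and erythroid markers summed to 240.1 to 527 CPM against 231 to 299 CPM, most of it from the globin gene Hbb-bs (192 to 416 against 181 to 238 CPM). The neutrophil genes S100a8 and S100a9 had 6.33 and 6.38 CPM in TAC 1. In the other libraries they had at most 1.43 and 0.923 CPM. In bulk tissue, fewer cells of a type and less RNA per cell cannot be told apart, and the part of cell makeup in the differences of the 9 genes was not tested. Skeletal muscle markers summed to 0.356 to 0.813 CPM in the libraries labelled TAC, against 0.765 to 1.27 CPM in those labelled Sham, with Myh4 at 0 in every library. Adipocyte markers summed to 0.0483 to 2.44 CPM in the libraries labelled TAC, against 0 to 1.09 CPM in those labelled Sham.

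Of 9 other genes of the creatine pathway and its transport, 7 were tested and 1 passed, lower in the libraries labelled TAC (1.11% of all genes tested passed in that direction and 0.322% in the other). This was Slc7a2, a transporter of arginine and other cationic amino acids, with 5.08, 4.33 and 3.35 CPM in the libraries labelled TAC, against 10.8, 8.09 and 9.93 CPM in those labelled Sham. Its groups did not overlap, and it was 2.25-fold lower in the libraries labelled TAC (log2 difference -1.17, SE 0.21, edgeR adjusted p = 0.0459). The call was lost with each library left out (adjusted p up to 0.133) and with limma on log2(FPKM + 0.1) (0.0643) or log2(FPKM + 1) (0.0591), and with a replicate block (0.104). It was kept in 5 of 14 alternatives, among them DESeq2 (adjusted p = 0.000187).

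Among 8 other adenylate kinases, 4 were tested and none passed in edgeR or DESeq2 (1.43% and 7.79% of all genes tested). At an unadjusted p under 0.05 there were 0, beside 20.9% of all genes tested. Ak4, a matrix isoform, had 9.33, 3.77 and 30.2 CPM in TAC 1, 2 and 3, against 32.4, 26.4 and 23.0 CPM in Sham 1, 2 and 3, so that TAC 3 lay with the libraries labelled Sham. Its log2 difference was -0.92 (SE 0.61, edgeR adjusted p = 0.435), with -2.05 without TAC 3, -0.68 without TAC 1 and -0.46 without TAC 2. Ak3, which uses GTP in the matrix, had a log2 difference of 0.16 (SE 0.14, edgeR adjusted p = 0.544), with 0.26 without TAC 1 or Sham 1 and 0.076 without TAC 2. Ak8 was listed at 0 in every library.

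Of 10 genes for the outer membrane channels, phosphate carriers and their regulator Ppif, 8 were tested, 7 had estimates above 0 (50.9% of all genes tested) and none passed in edgeR or DESeq2. At an unadjusted p under 0.05 there were 2, close to the 20.9% of all genes, and the median log2 difference was 0.20. Slc25a3, the phosphate carrier that supplies ATP synthase, had a log2 difference of 0.43 (SE 0.16, edgeR adjusted p = 0.175), close to those of Ckm and Slc25a4. Vdac1, the main outer membrane channel, stood at 0.27 (SE 0.12, adjusted p = 0.243) and Slc25a24, an ATP-Mg/phosphate carrier, at -0.45 (SE 0.18, adjusted p = 0.209).

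None of the 11 genes for AMPK subunits and upstream kinases passed in edgeR, with 5 at an unadjusted p under 0.05 (20.9% of all genes tested) and 2 called by DESeq2 (7.79% of all genes), Prkab2 and Camkk2. Prkab2, the AMPK beta-2 subunit of muscle, had 45.0, 38.7 and 43.8 CPM in the libraries labelled TAC, against 73.2, 218 and 83.3 CPM in those labelled Sham, with Sham 2 far above the rest. Its log2 difference was -1.55 (SE 0.39, edgeR adjusted p = 0.0953, DESeq2 adjusted p = 0.00107), with -0.88 without Sham 2 and down to -1.83 with another library left out. Camkk2, a kinase upstream of AMPK, stood at -0.68 (SE 0.20, edgeR adjusted p = 0.129, DESeq2 adjusted p = 0.0468), and Cab39, which helps activate the kinase LKB1, at -0.39 (SE 0.12, edgeR adjusted p = 0.131).

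Of 12 genes of AMP breakdown and the purine nucleotide cycle, 11 were tested and none passed in edgeR, with 3 at an unadjusted p under 0.05, close to the 20.9% of all genes tested. DESeq2 called 2, Nt5c1a and Ada, beside 7.79% of all genes. Nt5c1a, the cytosolic AMP nucleotidase of heart and skeletal muscle, had 19.8, 19.7 and 17.2 CPM in the libraries labelled TAC, against 13.3, 8.12 and 10.4 CPM in those labelled Sham. Its groups did not overlap (log2 difference 0.83, SE 0.19, edgeR adjusted p = 0.0778, DESeq2 adjusted p = 0.00559). With each library left out it lay between 0.67 and 1.03, with an edgeR adjusted p of 0.0432 without Sham 1 and up to 0.210 without the others. Ada, adenosine deaminase, had low counts, 16, 14 and 4 in TAC 1, 2 and 3, against 27, 50 and 44 in Sham 1, 2 and 3. Its log2 difference was -1.67 (SE 0.48, edgeR adjusted p = 0.119, DESeq2 adjusted p = 0.0356), and between -1.97 and -1.27 with each library left out. Pnp, which cleaves inosine and guanosine, stood at -0.46 (SE 0.18, edgeR adjusted p = 0.197).

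None of the 6 nucleoside diphosphate kinases passed in edgeR or DESeq2 (1.43% and 7.79% of all genes tested). At an unadjusted p under 0.05 there was 1 of 6, beside 20.9% of all genes tested. This was Nme3 (log2 difference 1.09, SE 0.39, edgeR adjusted p = 0.173). Nme2, the most abundant of the 6 by mean FPKM (65.2), stood at 0.16 (adjusted p = 0.397), and Nme6 at 0.24 (adjusted p = 0.487; 0.12 without Sham 2).

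**Figure D5:**
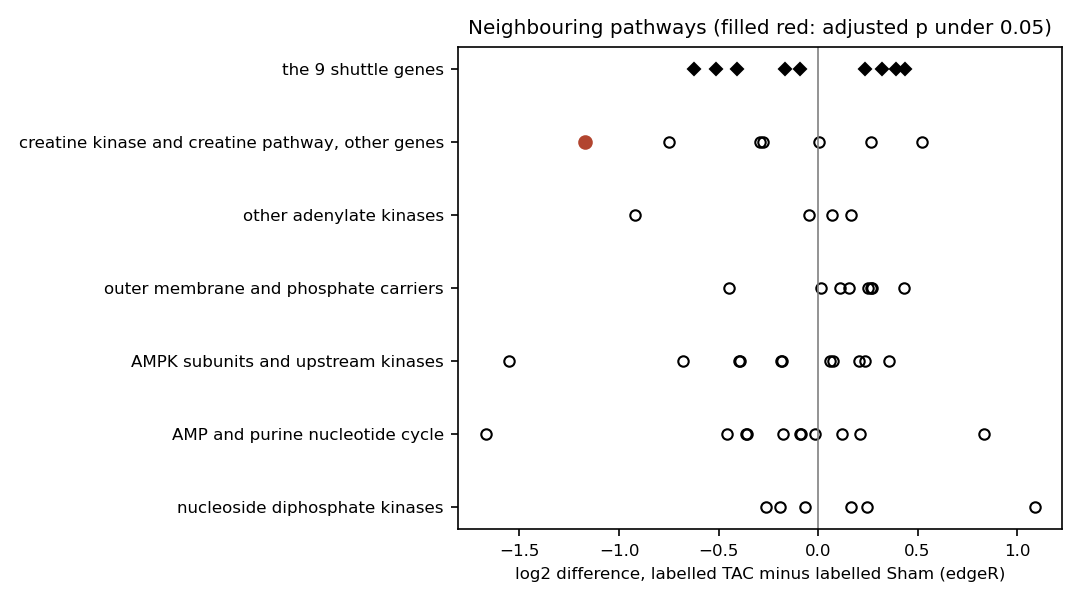
Fitted log2 difference, labelled TAC minus labelled Sham (horizontal axis), of the 9 shuttle genes (diamonds) and of the tested genes of 6 neighbouring lists (circles; filled where the adjusted p was under 0.05). Slc7a2, at -1.17, is the 1 filled point, and the 9 shuttle genes lie between -0.62 and 0.43.

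The lncRNA table added a second readout at these loci. In it, 7 transcripts overlapped 4 of the 9 genes (Ckm, Ckb, Ckmt2 and Slc6a8), 2 of them with enough counts to be tested, and the other 5 had at most 21 counts over all libraries. The transcript n269887 (chromosome 13, 91874627 to 91876882), unspliced and 2256 bases long, lies over the 5′ end of Ckmt2. It had 669, 535 and 483 counts in TAC 1, 2 and 3, against 340, 307 and 203 counts in Sham 1, 2 and 3. All 3 libraries labelled TAC were above those labelled Sham, including TAC 3, where Ckmt2 itself was lowest. The log2 difference in the lncRNA table was 0.96 (SE 0.23; edgeR adjusted p = 0.215, where 0.106% of transcripts tested passed; DESeq2 adjusted p = 0.0280, where 1.38% did). Its counts equalled 1.68% ± 0.291 of the Ckmt2 counts in the libraries labelled TAC, against 0.867% ± 0.0574 in those labelled Sham (SD, n = 3 each; exact permutation p = 0.1, the smallest possible).

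At Ckb, the unspliced transcript n264658 (chromosome 12, 111669362 to 111672300) covered nearly the whole gene and had 7, 23 and 14 counts in the libraries labelled TAC, against 25, 75 and 39 in those labelled Sham. These counts equalled 5.55% ± 2.31 of the Ckb counts in the libraries labelled TAC, against 11.3% ± 2.66 in those labelled Sham (SD, n = 3 each; exact permutation p = 0.1), and the log2 difference was -1.61 (SE 0.49, edgeR adjusted p = 0.281). The table gives no strand, and whether these counts come from reads of the overlapping gene was not tested.

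Over the 6 libraries, the genes most like Ckmt2 in log2 CPM, among 5022 genes with a mean FPKM of at least 5, were Dusp7 (Pearson r = 0.996), 2610507B11Rik (r = 0.996) and Atpaf2 (r = 0.990), an assembly factor of ATP synthase. Those most like Ckb were Ephb4 (r = 0.989), Gm42418 (r = 0.988) and Sparc (r = 0.983), a matrix protein gene with 290, 450 and 218 CPM in the libraries labelled TAC, against 403, 792 and 586 CPM in those labelled Sham. These are descriptions over the same 6 libraries, picked as the highest of many.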

How the data were processed

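Total RNA libraries of left ventricle, 3 labelled TAC and 3 labelled Sham, were read from the tables the authors deposited. Columns were matched to libraries by the name in the description label and grouped by title. Per the submitters' processing notes, HISAT2 2.0.4, StringTie 1.3.0 and the build GRCm38 (mm10) were used. Their roles, the annotation, the counting program, its strand setting and its handling of shared reads were not found (not given in the sources used here). The deposited counts are unnormalized whole numbers, 1 per gene or lncRNA transcript. The FPKM values deposited by the authors scale each count by 1 length per gene and by the summed gene counts of the library.

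The members, lists and alternatives were chosen with earlier results of these data known. The lists and named genes followed a fixed rule (every gene of a list past the threshold, otherwise up to 3 with the smallest p; the 3 genes most like Ckmt2 and Ckb; 4 label check genes); 1 gene it names is not reported here. Counts were tested with edgeR 4.0.16 (quasi-likelihood, TMM, filterByExpr with a minimum count of 10, no block) in R 4.3.3, with Benjamini-Hochberg adjustment over each whole table and a threshold of 0.05. An SE is the size of the log2 difference over the root of its F statistic. The lncRNA library size was taken from the deposited FPKM values, and the lncRNA fits were added after seeing the data. Ratios used FPKM and exact permutation tests (SciPy 1.17.1). Alternatives were DESeq2 1.42.0, limma 3.58.1 on log2(FPKM + 0.1) and log2(FPKM + 1), other scalings and filters, a replicate block and each library left out. The edgeR step was tested on simulated data. Promoter windows are RefSeq's.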

Additional observations from a re-analysis of the deposited data

How the results depend on the processing

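No member passed the threshold in any setting except DESeq2, which called 2 (Ckm and Slc25a4). The count over all genes, 217, was 338 with library totals without TMM, 432 with no filter, 1184 with DESeq2, 41 with a replicate block and 0 to 397 with each library left out (0 without TAC 1, where 2564 genes had an unadjusted p under 0.05). With library totals left unscaled 42 calls were higher and 296 lower in the libraries labelled TAC, where TMM gave 49 higher and 168 lower. Directions turned for Slc25a5 (0.015 without TAC 3; -0.29 to 0.01 with each library left out), Gamt (0.032 without Sham 1; -0.17 to 0.03) and Myh7 (0.117 without Sham 2; -4.61 to 0.12), and the cause was not tested. The other 7 members kept their sign in every setting run. The Ckb to Ckm ratio kept its sign in all 9 alternatives (-1.08 to -0.70), as did Slc25a5 to Slc25a4 (-0.72 to -0.36) and Ckmt2 to Ckm (-0.32 to -0.07).

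The labels do not say whether shared replicate numbers pair the libraries. Deviations from the group mean had correlations of -0.12, -0.13 and -0.10 between same-numbered libraries, and of -0.0035 to 0.12 between the others. Such deviations sum to 0 within each group of 3, so these values cannot decide whether the libraries were paired. With the replicate block no member passed, and the ratio differences were -0.86, -0.59 and -0.22 (exact sign-flip p = 0.25 for each, the smallest possible). Depth limits Gatm and Gamt most, with 24 to 85 counts per library, and neither was tested with a filter on mean FPKM of at least 1.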

Other observations

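Slc6a6, the taurine transporter and a relative of Slc6a8, was singled out after its values were seen. It had 288, 272 and 184 CPM in the libraries labelled TAC, against 325, 548 and 377 CPM in those labelled Sham, and the groups did not overlap (log2 difference -0.75, SE 0.24, edgeR adjusted p = 0.141, DESeq2 adjusted p = 0.0405). Sham 2 was the highest library. Slc25a31, a translocator known from testis, had 11, 5 and 1 counts in the libraries labelled TAC, against 8, 3 and 4 in those labelled Sham.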
